A study of Mus musculus with 24 samples.

Results

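Beta tubulin is the subunit of the tubulin dimer that carries the taxane site, and the mouse genes for it that were followed here are Tubb2a, Tubb2b, Tubb3, Tubb4a, Tubb4b, Tubb5, Tubb6 and Tubb1. They were taken by symbol from the gene table, 8 of 55418 genes, without use of their values, although earlier results of these data were known. All 8 were among the 25372 genes tested. RNA had been sequenced in bulk from lumbar (L4-L6) spinal cord of 24 C57BL/6J mice aged 8 to 10 weeks at the start. The 8 groups had 3 mice each: male and female mice with Chrna7 knocked out in myeloid cells (Chrna7-cKO, written cKO; the labels do not name the Cre driver) and male and female wild-type mice (WT), each given paclitaxel or vehicle. Paclitaxel was given at 1 mg/kg in 4 injections, 1 every other day. The drug was dissolved in Kolliphor, ethanol and water, and the cords were collected for RNA at day 7, counted from injection 1. Chrna7 encodes a subunit of the nicotinic acetylcholine receptor.

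Microtubules are polymers of alpha and beta tubulin, and they fill the axons of neurons and the processes of glia. Paclitaxel binds beta tubulin in the polymer, stabilises microtubules and causes a painful neuropathy in patients. The beta isotypes share one fold and are least alike in an acidic C-terminal tail, where enzymes add and remove glutamate residues. Tubb3 is the neuronal isotype, Tubb4a is prominent in brain and myelinating glia, Tubb2a and Tubb2b are rich in neurons, Tubb4b and Tubb5 are broadly expressed, Tubb6 is scarce in the nervous system, and Tubb1 belongs to megakaryocytes and platelets. Cells also read their own tubulin supply: TTC5 recognises the first residues of nascent tubulin (Met-Arg-Glu-Ile in beta tubulin) and, with SCAPER and the CCR4-NOT complex, marks the mRNA for decay when free tubulin is in excess.

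One library, WT female paclitaxel replicate 3, carried the markers of a sensory ganglion. All 8 dorsal root ganglion markers exceeded their median in the cords, and their sum stood at 4987% of the cord median, while the summed astrocyte markers stood at 4.21% and the oligodendrocyte markers at 12.3%. That library is called ganglion-like and is described on its own at the end. All comparisons below use the other 23 cords, so WT female paclitaxel has 2 cords. Libraries held 88812295 to 112158154 counts. Chrna7 itself is no check of a knockout restricted to myeloid cells in whole cord, and it lay at 9.05 to 14.3 CPM in the 12 cKO cords and at 9.52 to 15.8 CPM in the 11 WT cords (edgeR adjusted p = 1.00). CPM is the count scaled to library depth, here with TMM factors unless stated otherwise. The labels describe each library as 1 mouse, so differences between replicates include those between animals and between library preparations.

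The end of the coding region encodes the acidic tail, shown here because pairs of members other than Tubb2a and Tubb2b were less alike in it than before it. The last 75 coding bases before the stop codon are printed 5′ to 3′ on the sense strand, with glutamate codons in capitals (GENCODE transcripts of GRCm38).
Tubb2a: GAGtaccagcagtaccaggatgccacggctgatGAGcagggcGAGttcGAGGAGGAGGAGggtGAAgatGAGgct
Tubb2b: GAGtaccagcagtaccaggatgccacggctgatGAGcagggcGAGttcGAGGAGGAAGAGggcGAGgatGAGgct
Tubb3: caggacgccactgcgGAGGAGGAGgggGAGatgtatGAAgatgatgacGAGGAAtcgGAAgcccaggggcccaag
Tubb4a: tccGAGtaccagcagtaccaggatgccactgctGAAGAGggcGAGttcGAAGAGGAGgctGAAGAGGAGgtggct
Tubb4b: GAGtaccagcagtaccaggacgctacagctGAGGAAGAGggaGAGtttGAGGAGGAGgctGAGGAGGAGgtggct
Tubb5: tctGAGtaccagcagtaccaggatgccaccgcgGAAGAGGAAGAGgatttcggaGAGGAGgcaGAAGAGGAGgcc
Tubb1: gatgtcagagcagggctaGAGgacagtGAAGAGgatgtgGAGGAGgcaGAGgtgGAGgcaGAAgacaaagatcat
Of the 25 tail residues, 9 were glutamate in Tubb2a and in Tubb2b, 8 in Tubb3 and in Tubb1, 10 in Tubb4a and in Tubb5, and 11 in Tubb4b. Tubb6, whose tail is not printed, had 8. The Tubb2a and Tubb2b tails encode the same residues. Over the aligned tails, with gaps counted as differences, Tubb3 was 35.5 to 43.3% identical to each of the other members except Tubb1. On the same measure Tubb1 was 12 to 24% identical to any member.

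All 8 proteins began Met-Arg-Glu-Ile and were 444 to 451 residues long. Outside Tubb1, pairs of members were 90.2 to 99.6% identical over the whole protein. Tubb2a and Tubb2b were the closest pair, with 2 differing residues of 445, and Tubb1 was the most distant, at 77.5 to 78.5% identity to each other member. Their likeness bears on the counts, because reads that map to several places were not counted. Of all 100-base windows of the transcripts, 36.9% of those in Tubb2a and 27.7% of those in Tubb2b also occurred in another gene (each other or a Tubb2a pseudogene), and 30.6% of those in Tubb4b occurred in Fam166a, Gm16165 or its pseudogenes. No window of the other members was shared. The levels of Tubb2a, Tubb2b and Tubb4b are therefore uncertain, since reads from stretches shared with other genes may not have been counted. The 3 annotated Tubb pseudogenes held at most 29 counts in any library, no more than 0.0894% of their parent.

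In the GRCm38 annotation used for counting (Ensembl 96), Tubb2a lay at chr13:34074274-34078007 and Tubb2b at chr13:34126748-34130466, both on the minus strand and 48740 bases apart. Tubb3 lay at chr8:123411424-123422015 on the plus strand. Chromosome 17 held Tubb4a at chr17:57080066-57087782 and Tubb5 at chr17:35833921-35838306, both on the minus strand. Chromosome 2 held Tubb4b at chr2:25222160-25224702 on the minus strand and Tubb1 at chr2:174450695-174457882 on the plus strand. Tubb6 lay at chr18:67390717-67402749 on the plus strand. Counts were taken over the exons of each gene without regard to strand, so a gene and an antisense partner cannot be told apart.

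The cord expressed 6 isotypes in quantity, 1 at a low level and 1 barely at all. Per kb of exon, the scale on which levels of different genes can be compared, Tubb4a averaged 317 ± 38.3 CPM per kb, Tubb3 245 ± 28.5, Tubb2a 164 ± 19.1, Tubb4b 141 ± 12.9, Tubb5 93.6 ± 8.54, Tubb2b 44.8 ± 5.06 and Tubb6 4.35 ± 0.361 CPM per kb (SD, n = 23). Tubb1 averaged 0.0567 ± 0.0445 CPM per kb and had 0 to 26 counts in a library. Each gene of this order stood above the next in 23 of 23 cords, although the ranges over cords overlapped for the neighbours from Tubb4a down to Tubb5. Tubb2b, Tubb6 and Tubb1 did not overlap with the gene above them. The exon length includes stretches that other genes share and whose reads may not have been counted, 36.9% of windows in Tubb2a, so the places of Tubb2a, Tubb4b and Tubb2b in this order, and their shares, may be too low; that was not tested. Together the 8 genes took 0.169 to 0.252% of all counts.

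The mix of the 6 abundant isotypes varied less than their levels. Tubb4a made up 31.4 ± 1.10% of beta tubulin RNA per kb, Tubb3 24.3 ± 1.00%, Tubb2a 16.2 ± 0.376%, Tubb4b 13.96 ± 0.448%, Tubb5 9.29 ± 0.266%, Tubb2b 4.44 ± 0.269% and Tubb6 0.434 ± 0.0512% (SD, n = 23). In relative terms the SD of a share was 2.32 to 6.05% of its mean for the 6 abundant isotypes, against 9.12 to 12.1% for their CPM. For Tubb6 the share varied more than the level, by 11.8% against 8.31%. Without correction for length, Tubb4a held 32.9% of the summed CPM and Tubb5, the member with the longest exons, 14.5%.

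**Figure D1:**
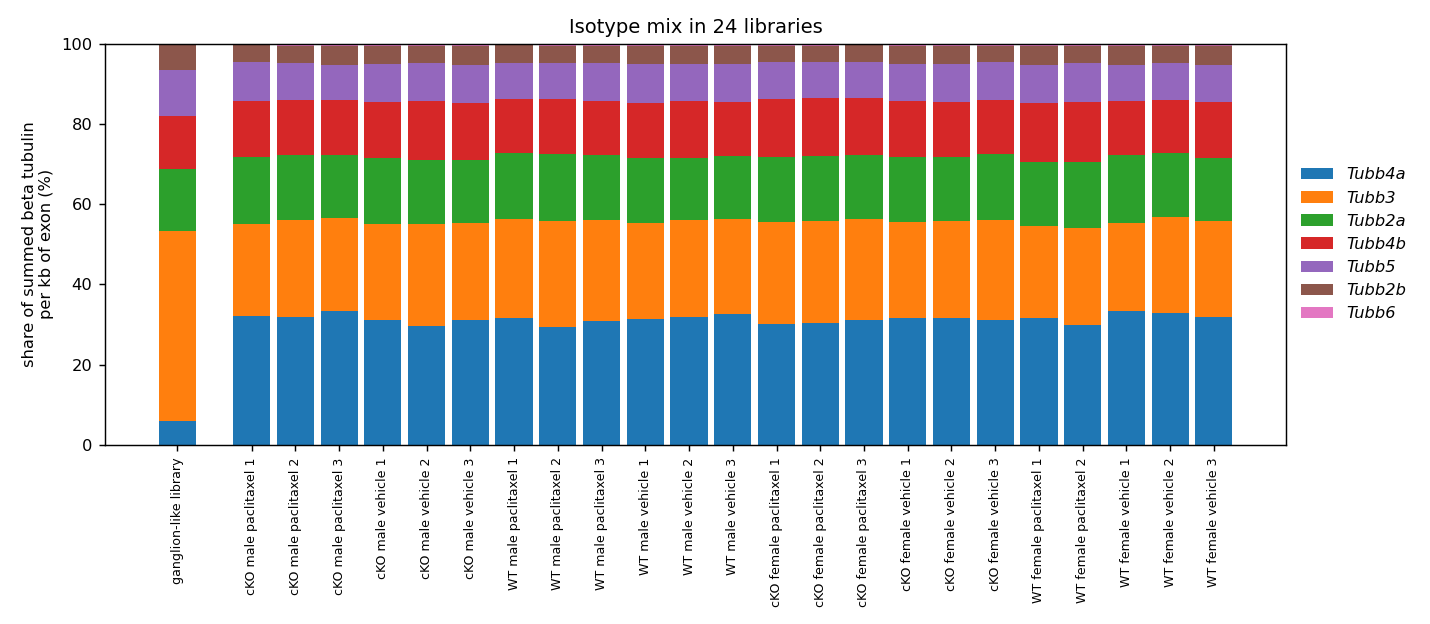
Share of each beta tubulin gene in the summed CPM per kb of exon (vertical axis, percent), 1 bar per library, with the ganglion-like library at the left and the 23 cords by sex, genotype, treatment and replicate. Tubb4a and Tubb3 lead in every cord, with 29.4 to 33.4% and 22.03 to 26.3%, whereas the ganglion-like library has 5.90% Tubb4a and 47.5% Tubb3; Tubb6 is too small to be seen.

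Paclitaxel went with more beta tubulin RNA in the cords of males. By library number, every male paclitaxel library comes before every male vehicle library. Treatment and library order therefore cannot be told apart in this comparison, and the labels name no batch. Of the 8 members, 5 were called higher in the 6 male paclitaxel cords than in the 6 male vehicle cords (called means an edgeR adjusted p under 0.05 over all 25372 genes), where 6.69% of all genes were called in either direction. The 5 were Tubb2a, Tubb3, Tubb4a, Tubb4b and Tubb5, at 1.16 to 1.23-fold. Both genotypes are weighted equally here, and this comparison was added after the difference between the sexes had been seen.

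Tubb3, the neuronal isotype, measured 459.7, 496 and 502 CPM in cKO male paclitaxel cords and 554, 543 and 481 CPM in WT male paclitaxel cords, against 459, 416 and 355 CPM in cKO male vehicle cords and 434, 428 and 429 CPM in WT male vehicle cords. The 6 paclitaxel cords all stood above the 6 vehicle cords, though cKO cords of both arms nearly met at 459.7 and 459 CPM. Its log2 fold change was 0.27 ± 0.06 (SE; adjusted p = 0.00842), the smallest p among the members. Tubb5, the broadly expressed class, ranged over 322 to 369.8 CPM (median 335) in male paclitaxel cords and over 247 to 319 CPM (median 296) in male vehicle cords, again without overlap (log2 fold change 0.22 ± 0.05, adjusted p = 0.0129). Tubb3 and Tubb5 were the members whose groups did not overlap, where 0.93% of all genes lay higher in this way.

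Tubb4a, the most abundant member, measured 766, 775 and 859 CPM in cKO male paclitaxel cords and 854, 724 and 703 CPM in WT male paclitaxel cords, against 708, 572 and 539 CPM in cKO male vehicle cords and 676, 673 and 707 CPM in WT male vehicle cords. The groups touched, since the lowest paclitaxel cord lay under the highest vehicle cords. Its log2 fold change was 0.27 ± 0.06 (adjusted p = 0.0136). Tubb2a averaged 293 ± 19.4 CPM in male paclitaxel cords and 238 ± 25.2 CPM in male vehicle cords (SD, n = 6 each), with a log2 fold change of 0.30 ± 0.07 (adjusted p = 0.0129). Tubb4b, which also builds ciliary axonemes, averaged 316 ± 15.4 CPM and 272 ± 24.2 CPM in these groups (log2 fold change 0.22 ± 0.05, adjusted p = 0.0143).

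The remaining members were not called in males. Tubb2b, the close copy of Tubb2a, ranged over 100.5 to 132 CPM in paclitaxel cords and 83.5 to 108 CPM in vehicle cords, with a log2 fold change of 0.22 ± 0.07 that just missed the threshold (adjusted p = 0.0550). Tubb6 had a log2 fold change of -0.01 with a 95% interval of -0.16 to 0.14, so a change of the size seen in Tubb4a lies outside its interval. Tubb1 rested on at most 26 counts, and its interval of -1.22 to 1.44 is wider than any change seen in the other members, so none was detectable at this depth.

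In females none of the 8 members was called, and 0.00394% of all genes were (1 gene). Within the female paclitaxel group, the cKO cords and the 2 WT cords lay apart for Tubb4a. Tubb4a measured 724, 696 and 738 CPM in cKO female paclitaxel cords, against 738, 623 and 738 CPM in cKO female vehicle cords. In WT female paclitaxel cords it measured 592 and 569.7 CPM, against 804, 792 and 697 CPM in WT female vehicle cords. The cKO female groups overlapped, and both WT female paclitaxel cords lay under all WT female vehicle cords.

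Tubb3 measured 512, 489.6 and 500.1 CPM in cKO female paclitaxel cords, against 468, 396 and 497 CPM in cKO female vehicle cords. It measured 358 and 389 CPM in WT female paclitaxel cords, against 445, 482 and 437 CPM in WT female vehicle cords. The same arrangement held for this isotype, with the pair of WT female paclitaxel cords lowest. Over both genotypes, the log2 fold change in females was -0.18 ± 0.07 for Tubb4a (adjusted p = 0.422), -0.19 ± 0.07 for Tubb2b (adjusted p = 0.439) and -0.07 ± 0.06 for Tubb3 (adjusted p = 0.747), and it lay between -0.11 and -0.01 for Tubb2a, Tubb4b, Tubb5 and Tubb6.

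**Figure D2:**
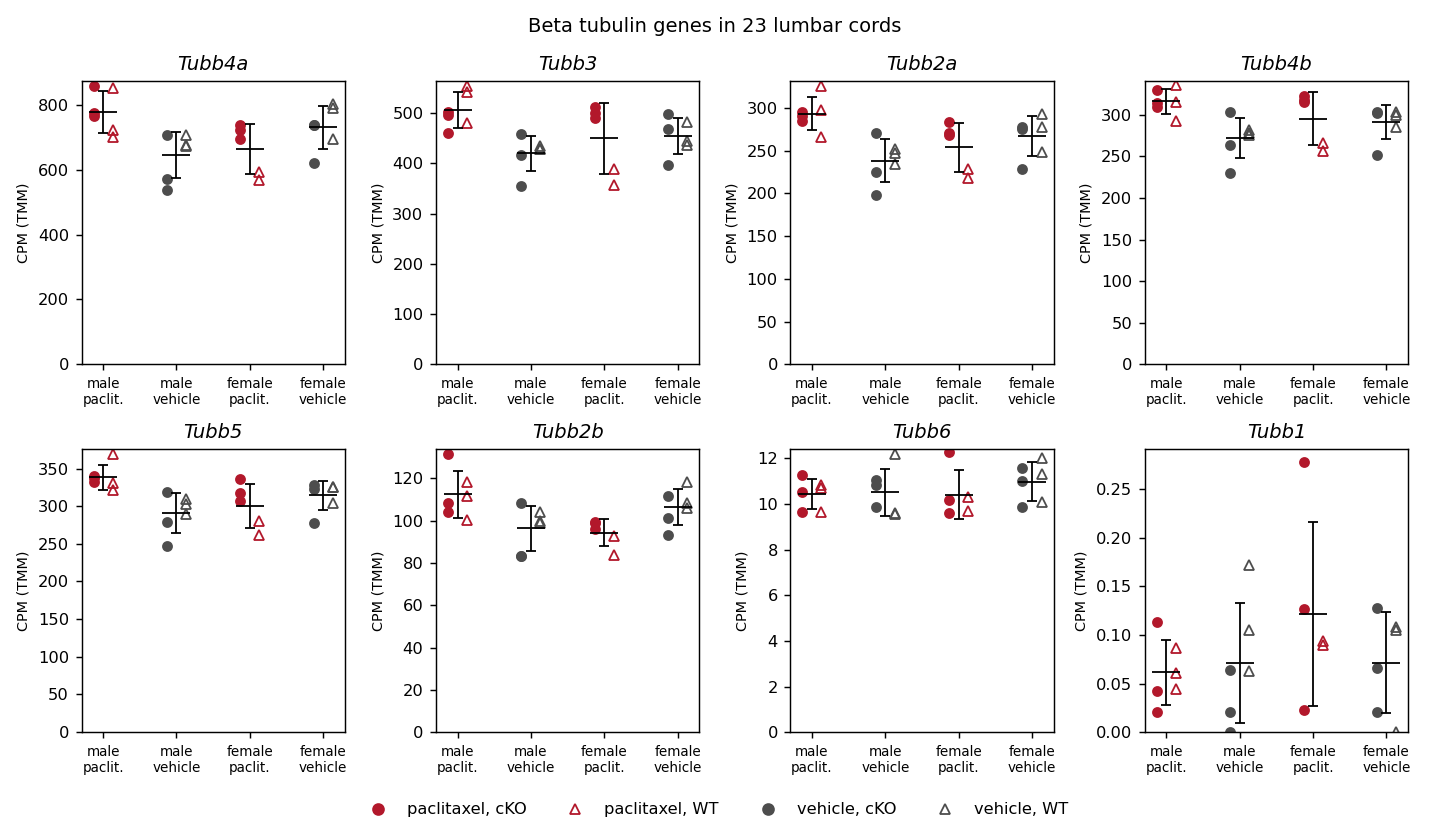
CPM (TMM) of the 8 genes in 23 cords (vertical axis, linear from 0, with its own scale in each panel), by sex and treatment; filled circles are cKO and open triangles WT cords, red is paclitaxel and grey vehicle, and the bar and whiskers give the mean and SD. In male paclitaxel cords Tubb3 spans 459.7 to 554 CPM, above all male vehicle cords, and the 2 WT female paclitaxel cords hold the lowest female values of Tubb4a, 592 and 569.7 CPM.

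The test of the difference itself, the response of males minus that of females, called 5 of 8 members. By library number, all male paclitaxel and female vehicle libraries come before all male vehicle and female paclitaxel libraries. The difference between the responses of the sexes therefore coincides with library order and cannot be told apart from it. Tubb4a differed by 0.45 ± 0.09 log2 units (SE; edgeR adjusted p = 0.0154), Tubb2b by 0.42 ± 0.10 (adjusted p = 0.0258), Tubb2a by 0.41 ± 0.10 (adjusted p = 0.0239), Tubb3 by 0.34 ± 0.08 (adjusted p = 0.0219) and Tubb5 by 0.31 ± 0.07 (adjusted p = 0.0201). Of all genes 4.96% were called in this test, 2.72% in the positive direction that these members share. Tubb4b differed by 0.23 ± 0.08 (adjusted p = 0.0718), Tubb6 by 0.08 ± 0.11 (adjusted p = 0.758) and Tubb1 by -0.56 ± 0.99 (adjusted p = 0.813). The count rests on few cords: it was 1 of 8, Tubb4a alone, without WT female paclitaxel replicate 1, where 248 genes were called in place of 1259. In males it was 2 of 8, Tubb2a and Tubb3, without cKO male vehicle replicate 3, where 357 genes were called in place of 1698; that cord had 355 CPM of Tubb3 and 539 CPM of Tubb4a.

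Split by genotype in the same fit, a split added after the levels were seen, the parts of this difference were unequal. Paclitaxel against vehicle gave a log2 fold change for Tubb4a of 0.40 ± 0.09 in cKO males (adjusted p = 0.0394), 0.15 ± 0.09 in WT males (adjusted p = 0.517), 0.04 ± 0.09 in cKO females (adjusted p = 0.978) and -0.40 ± 0.10 in WT females (adjusted p = 0.217). For Tubb3 the values were 0.25 ± 0.08, 0.29 ± 0.08, 0.14 ± 0.08 and -0.28 ± 0.09 in the same order of groups, with adjusted p of 0.106, 0.223, 0.889 and 0.235. Males of both genotypes thus had positive values for these members and WT females negative ones. Tubb4a in cKO males was the 1 member called among these splits, where 0.784% of all genes were called in cKO males and 0% in the other 3 combinations.

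The response of males minus that of females was 0.36 ± 0.13 for Tubb4a in cKO (adjusted p = 0.307) and 0.54 ± 0.13 in WT (adjusted p = 0.0857), and for Tubb3 it was 0.10 ± 0.11 in cKO (adjusted p = 0.772) and 0.57 ± 0.12 in WT (adjusted p = 0.0855). No member was called in either genotype alone, where the share of all genes called was also 0%. The positive sign was present in both genotypes for the 5 members called over both.

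**Figure D3:**
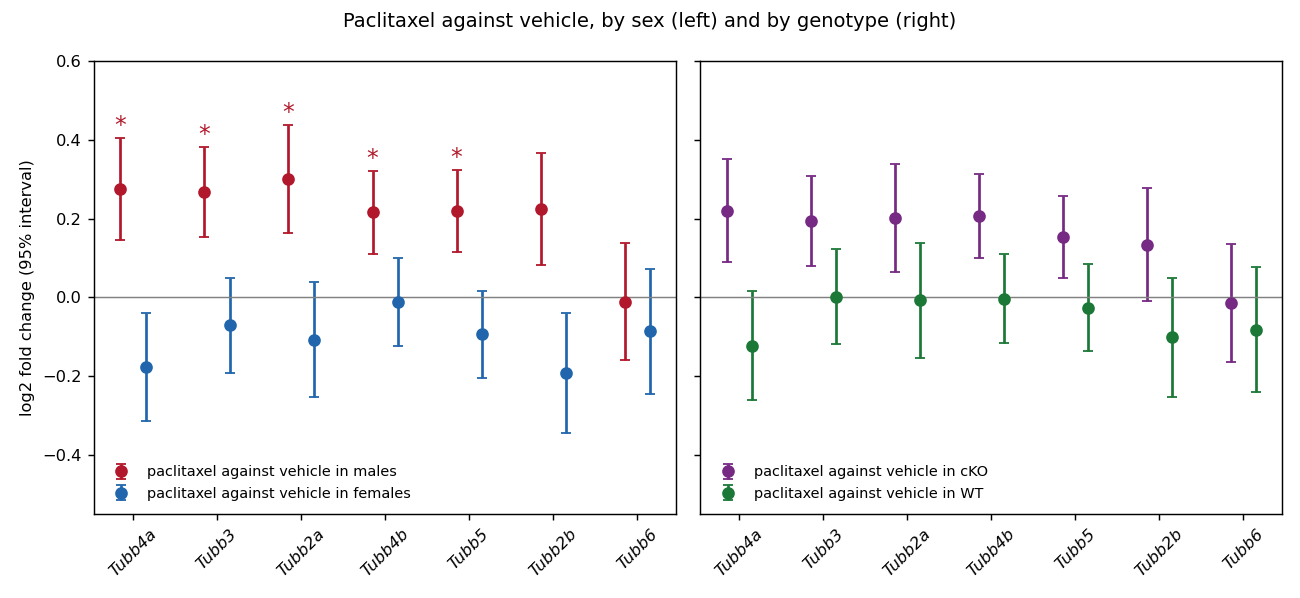
Log2 fold change of paclitaxel against vehicle (vertical axis) with its 95% interval for the 7 expressed members, in males and females (left) and in cKO and WT (right); an asterisk marks an edgeR adjusted p under 0.05. In males 5 members carry an asterisk, at 0.22 to 0.30, and none does in females, cKO or WT; Tubb1, with an interval of -1.22 to 1.44 in males, is left out.

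By genotype, no member was called in cKO, where 0.0236% of all genes were, or in WT, where 0% were. In cKO cords 7 of 8 members had a positive log2 fold change, and 5 had an unadjusted p under 0.05 with a higher level under paclitaxel, where 5.51% of all genes did. Tubb4b measured 315, 309 and 329.9 CPM in cKO male paclitaxel cords and 323, 315 and 317 CPM in cKO female paclitaxel cords, against 303, 264 and 231 CPM in cKO male vehicle cords and 302, 252 and 304 CPM in cKO female vehicle cords. The groups did not overlap, and 0.185% of all genes lay higher in this way; the log2 fold change was 0.21 ± 0.05 (adjusted p = 0.185). Tubb4a had 0.22 ± 0.06 (adjusted p = 0.225), Tubb2a 0.20 ± 0.07 (adjusted p = 0.269), Tubb3 0.19 ± 0.06 (adjusted p = 0.225) and Tubb5 0.15 ± 0.05 (adjusted p = 0.264). Leaving out 1 cord at a time kept the count of called members at 0 in 22 of 23 fits. The exception was the fit without cKO male vehicle replicate 1, the cKO male vehicle cord with the most Tubb4a (708 CPM). There 5 of 8 members were called, in a fit that called 332 genes in place of 6.

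In WT cords the log2 fold changes over both sexes were close to 0, and for the 6 abundant isotypes they were positive in WT males and negative in WT females. Tubb3 had 0.00 ± 0.06, Tubb4b -0.00 ± 0.05 and Tubb2a -0.01 ± 0.07, and Tubb4a had -0.12 ± 0.07 (adjusted p = 0.666). The WT paclitaxel cords spread over 358 to 554 CPM of Tubb3, on both sides of the 428 to 482 CPM of the WT vehicle cords. The response of cKO minus that of WT was positive in 8 of 8 members and had an unadjusted p under 0.05 in 6, where 4.51% of all genes did, yet none of the 8 and 0% of all genes were called. Among the 7 expressed members Tubb4a had the largest such value, 0.34 ± 0.09 (adjusted p = 0.496), and an average of both genotypes carried none of the members past the threshold (0.0197% of all genes were called there). These comparisons share their cords with those by sex.

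Neither genotype nor sex by itself gave a call in the family. No member was called between cKO and WT over both treatments (0.0118% of all genes were called), with log2 fold changes of -0.01 to 0.06 for the 7 expressed members. None was called between males and females over both treatments, where 0.918% of all genes were, with values of -0.02 to 0.06 for the same members.

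Summed over the 8 genes, beta tubulin RNA stood at 2357 ± 138 CPM in male paclitaxel cords and 1974 ± 187 CPM in male vehicle cords (SD, n = 6 each). It stood at 2069 ± 241 CPM in female paclitaxel cords (n = 5) and 2176 ± 164 CPM in female vehicle cords (n = 6). The lowest cords were cKO male vehicle replicates 3 and 2, with 1663 and 1850 CPM, WT female paclitaxel replicates 1 and 2, with 1790 and 1828 CPM, and cKO female vehicle replicate 2, with 1881 CPM. The highest was WT male paclitaxel replicate 1, with 2567 CPM. In bulk tissue, fewer cells of a type and less RNA per cell cannot be told apart.

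The isotype mix differed little between treatments. The largest difference per kb by sex or by genotype was -1.66 points, for Tubb4a in WT. There it made up 30.7 ± 1.05% under paclitaxel (SD, n = 5) and 32.4 ± 0.754% under vehicle (n = 6). In cKO it made up 31.5 ± 1.19% under paclitaxel and 31.0 ± 0.789% under vehicle (n = 6 each). Per kb, Tubb4a made up 31.5 ± 1.30% in male paclitaxel cords and 31.2 ± 1.04% in male vehicle cords, and 30.6 ± 0.799% in female paclitaxel cords and 32.1 ± 0.864% in female vehicle cords. Tubb3 made up 24.4 ± 1.254% in male paclitaxel cords and 24.3 ± 0.680% in male vehicle cords. Of all 8 shares in the comparisons by sex and by genotype, the groups failed to overlap for Tubb6 in males, at 0.386 ± 0.0145% under paclitaxel and 0.468 ± 0.0566% under vehicle, and for Tubb4b in females, at 14.6 ± 0.240% under paclitaxel and 13.6 ± 0.220% under vehicle. The level of Tubb6 itself averaged 10.4 CPM in male paclitaxel cords and 10.5 CPM in male vehicle cords. Shares were given no test.

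The alpha tubulins, partners of the beta chain in the dimer, included genes that rose in males too. Of 11 alpha and other tubulin genes 9 were tested. In males 3 were called higher and none lower, where 6.69% of all genes were called in either direction. They were Tuba1a with a log2 fold change of 0.29 ± 0.05 (adjusted p = 0.00625), Tuba1b with 0.23 ± 0.05 (adjusted p = 0.00723) and Tubg1, the gamma tubulin that nucleates microtubules, with 0.18 ± 0.05 (adjusted p = 0.0454). Tuba1b measured 281 to 311 CPM in male paclitaxel cords and 227 to 274 CPM in male vehicle cords, without overlap. Tuba1a was also called in the test of males minus females (0.40 ± 0.08, adjusted p = 0.0142). The median over the tested genes of this list was 0.17 in males, against 0.01 over all tested genes, and it was 0.22 over the beta tubulins. In cKO the smallest p in this list belonged to Tuba1b (0.20 ± 0.05), Tuba1a (0.22 ± 0.05) and Tuba1c (0.49 ± 0.17), with none called.

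Genes of tubulin folding and autoregulation gave few calls. The 24 include the chaperonin subunits, the prefoldins, the tubulin cofactors, Ttc5 and Scaper. None was called in males, where 6.69% of all genes were, and the median log2 fold change was 0.01. In the test of males minus females 1 was called lower, Tbce, a cofactor that assembles the dimer (-0.21 ± 0.05, adjusted p = 0.0220). That count is near the share over all genes, of which 4.96% were called there in either direction. In cKO the smallest p belonged to Cct3 (0.14 ± 0.05), Cct7 (0.12 ± 0.04) and Cct2 (0.07 ± 0.04), all subunits of the chaperonin that folds tubulin, with none called.

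Among 24 tested genes of 25 that modify tubulin tails and lysines, 2 were called lower in males and none higher. That count is near the share over all genes, of which 6.69% were called in males in either direction. For males minus females 4.96% of all genes were called. Ttll7, an enzyme that adds glutamate chains to beta tubulin tails, averaged 441 ± 27.6 CPM in male paclitaxel cords and 509.8 ± 36.9 CPM in male vehicle cords, without overlap (log2 fold change -0.21 ± 0.04, adjusted p = 0.00801). Ttll4, which starts such chains, had -0.19 ± 0.04 (adjusted p = 0.0139). In the test of males minus females, Ttll4 (-0.28 ± 0.07, adjusted p = 0.0183) and Ttll7 (-0.23 ± 0.06, adjusted p = 0.0363) were called lower and Ttll1, the catalytic subunit of another polyglutamylase, higher (0.24 ± 0.07, adjusted p = 0.0355). In cKO the smallest p belonged to Ttll9 (0.25 ± 0.09), Ttll1 (0.13 ± 0.05) and Ttll7 (-0.12 ± 0.04), with none called.

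**Figure D4:**
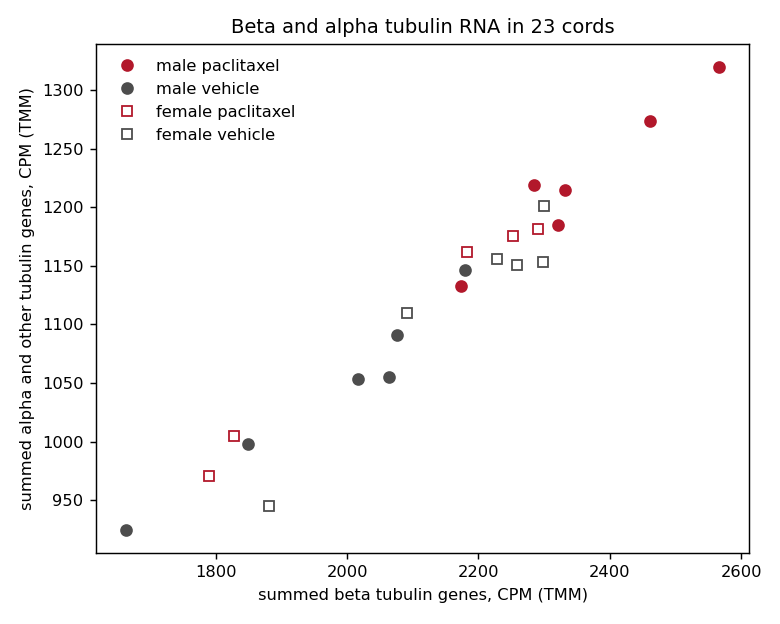
Summed CPM of the 8 beta tubulin genes (horizontal axis) and of the 11 alpha and other tubulin genes (vertical axis) in 23 cords; circles are male, open squares female, red paclitaxel and grey vehicle. Male paclitaxel cords lie at 2174 to 2567 beta tubulin CPM and at 1133 to 1320 alpha and other tubulin CPM, and male vehicle cords at 1663 to 2179 and 925 to 1146 CPM.

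Of the cell type lists, neuron and endothelial markers varied most with these levels from cord to cord, and measures of the library varied with them too. The part of cell types and of library measures in the result was not tested. Of all genes, 6.69% were called in males and 4.96% for males minus females, in either direction. The 6 neuron markers summed to 7993 to 9396 CPM in male paclitaxel cords and 7263 to 8447 CPM in male vehicle cords, and 1 of the 6, Rbfox3, was called higher in males (log2 fold change 0.15, adjusted p = 0.0167). The 6 endothelial markers summed to 212 to 229 CPM in male paclitaxel cords and 125 to 192 CPM in male vehicle cords, with Cldn5 and Pecam1 called higher. In females the endothelial sum was 179 to 338 CPM in paclitaxel cords and 181 to 224 CPM in vehicle cords. Oligodendrocyte markers had 2 positive and 4 negative values in males (median -0.04, Mag called higher), precursor markers 2 positive and 3 negative (median -0.03, Cspg4 called higher), astrocyte markers 4 positive and 2 negative (median 0.11, Aldh1l1 called higher) and microglial markers 4 positive and 2 negative (median 0.09, Cx3cr1 called higher). Skeletal muscle markers, tissue foreign to the cord, had a median difference of 3.04 log2 units between the responses of males and females, with 1 of 5 called (Acta1), while their sum stayed under 37 CPM in every cord. The 6 platelet and megakaryocyte markers, the lineage of Tubb1, summed to 7.01 to 8.37 CPM in male paclitaxel cords and 6.67 to 7.26 CPM in male vehicle cords.

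Across the 23 cords, as deviations from group means on the log2 scale, the beta tubulin sum correlated with the sum of the alpha and other tubulins at r = 0.965, with neuron markers at 0.735, with folding genes at 0.546, with endothelial markers at 0.535 and with the other lists between -0.38 and 0.27. It also correlated with the TMM factor of the library at r = -0.640 and with the number of genes detected by 10 counts at r = -0.526. The TMM factors spanned 0.981 to 1.02 in male paclitaxel cords and 0.993 to 1.02 in male vehicle cords. These are descriptions over libraries that share depth and scaling.

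Within the family, the isotypes other than Tubb6 varied together from cord to cord. The 15 pairs without Tubb6 and Tubb1 had Pearson r of 0.594 to 0.951 (median 0.866), and the 6 pairs with Tubb6 had r of 0.237 to 0.494, over 23 cords. Among 10755 genes with a mean of at least 10 CPM, the patterns most like Tubb2a were those of Vcp (r = 0.982), Atp5a1 (0.971) and Pkm (0.964). Tubb4b was closest to Atp5a1 (0.983), Pkm (0.954) and Nop2 (0.954), and Tubb3 to Anxa6 (0.958), Nop2 (0.939) and Pfkm (0.936). Vcp is a protein-remodelling ATPase, Atp5a1 a subunit of the mitochondrial ATP synthase, and Pkm and Pfkm are enzymes of glycolysis.

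Tubb5 was closest to Ppp2r1a (0.958), Cops8 (0.956) and Clstn1 (0.952), Tubb4a to Wbp2 (0.945) and Mdh2 (0.936), and Tubb2b to Anxa5 (0.903), Hey2 (0.866) and Tubb4a (0.866). Mdh2 is a mitochondrial malate dehydrogenase. Tubb6 stood apart with Xdh (0.859), Kdm4a (0.854) and Il17ra (0.780). The measure is the correlation of log2(CPM + 0.5) deviations from the group means over 23 cords.

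**Figure D5:**
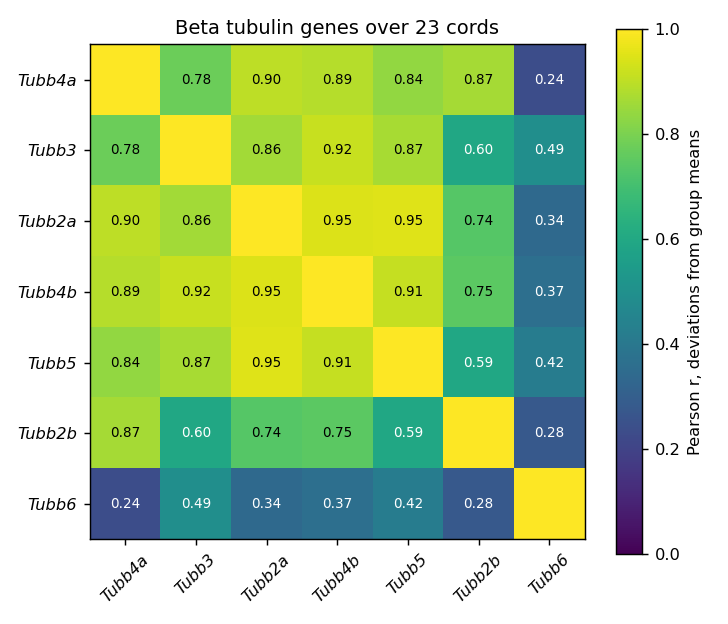
Pearson r between the 7 expressed members over 23 cords, as deviations of log2(CPM + 0.5) from the means of the 8 groups. The 15 pairs among the 6 abundant isotypes lie at 0.594 to 0.951, and the row of Tubb6 at 0.237 to 0.494.

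The ganglion-like library had another isotype mix. Values here are CPM from library totals, without TMM factors, for 1 library, so there is no replicate check. Tubb3 reached 2172 CPM, 4.73 times the median of the cords, which lay at 360.5 to 544 CPM. Tubb4a stood at 322 CPM, 45.2% of the cord median and below every cord (549 to 863 CPM). Tubb4a was the 1 member below the cords.

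Of the rest, Tubb2b was at 350.3 CPM (3.43 times the cord median), Tubb5 at 935 CPM (2.93 times), Tubb2a at 611 CPM (2.26 times), Tubb4b at 669.9 CPM (2.24 times) and Tubb6 at 17.4 CPM (1.65 times), each above all 23 cords. Tubb1 was at 0.232 CPM, inside the 0 to 0.278 CPM of the cords. Summed beta tubulin came to 5079 CPM, 2.30 times the median of the cords. Per kb, Tubb3 made up 47.5% of beta tubulin (22.03 to 26.3% in cords) and Tubb4a 5.90% (29.4 to 33.4% in cords). The ratio of Tubb3 to Tubb4a per kb was 8.04, against 0.660 to 0.894 in cords. The shares of Tubb2b, 6.24%, and Tubb5, 11.5%, also lay above all cords, those of Tubb4b, 13.1%, and Tubb6, 0.292%, lay below them, and that of Tubb2a, 15.5%, lay within their 15.4 to 16.9%.

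As sums, the same library held 242% of the cord median of the alpha and other tubulins and 120% of the neuron markers. It held 387% of the Schwann cell markers and 9994% of the skeletal muscle markers. Of the 11 alpha and other tubulin genes, 4 lay above their own cord median. With this library in the fit, no member was called in any comparison.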

How the data were processed

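The authors deposited whole-number counts per gene symbol as a single unnormalized table. Per the submitters' processing notes the aligner was STAR, whose version is not known here, and the counter featureCounts 1.6.2. Per the file headers, Ensembl 96 exons of GRCm38 were counted without strand, and no paired-end option was set, so mates of a pair may each be counted and a count is of reads, not fragments. Depth was 88812295 to 112158154 counts. Counts of 23 libraries were fitted with edgeR 4.0.16 (R 4.3.3; filterByExpr, TMM, robust quasi-likelihood, 8 group means), with Benjamini-Hochberg adjustment over 25372 genes. Alternatives used DESeq2 1.42.0, limma 3.58.1 voom, other scalings, no filter, all 24 libraries, each library left out and a replicate block. The fit was tested on simulated data.

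Members and lists were chosen with earlier results of these data known, and the comparisons within males, within females and within each genotype of a sex were added after the sex by treatment interaction was seen. The text names all 8 members, the called genes of the pathway lists with the 3 smallest p in cKO, and the 3 genes closest to each member, of which 1 is not reported here. No replicates were duplicates (chi-square per degree of freedom at least 8.98).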

Additional observations from a re-analysis of the deposited data

Results flagged for a closer look

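In the reported fit, the response to paclitaxel differed between the sexes for 5 members: the response of males minus that of females was 0.41 for Tubb2a, 0.42 for Tubb2b, 0.34 for Tubb3, 0.45 for Tubb4a and 0.31 for Tubb5 on the log2 scale. Without WT female paclitaxel replicate 1 the count was 1 member. No member was called in either genotype alone or with all 24 libraries. The contrast also coincides with the order of library numbers and cannot be told apart from it.

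Several members were far above the cords in the ganglion-like library, which no comparison uses: Tubb2a at 611 CPM, Tubb2b at 350.3 CPM, Tubb3 at 2172 CPM, Tubb4b at 669.9 CPM, Tubb5 at 935 CPM and Tubb6 at 17.4 CPM (library totals, 1 library).

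Of 56 sets of 5 or 6 cords examined for the 7 expressed members, 4 held a cord far from the others, and chance alone gives about 1 in 20. Tubb2b stood at 132 CPM in cKO male paclitaxel replicate 3, against 96.3 to 108 CPM in the other cKO paclitaxel cords. Tubb3 stood at 482 CPM in WT female vehicle replicate 2, against 428 to 445 CPM in the other WT vehicle cords. Tubb4b stood at 252 CPM in cKO female vehicle replicate 2, against 285 to 304 CPM in the other female vehicle cords. Tubb6 stood at 12.3 CPM in cKO female paclitaxel replicate 1, against 9.62 to 10.3 CPM in the other female paclitaxel cords.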

How the results depend on the processing

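Of 1504 comparisons of a member's fold change between the reported fit and an alternative, 1360 kept direction and side of the threshold. The cause was not tested where a value changed. The WT female paclitaxel arm has 2 cords, which limits every female and interaction value, and Tubb1, with at most 26 counts, is limited by depth. Paclitaxel against vehicle within a sex, and males minus females, coincide with the order of library numbers and cannot be told apart from it.

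With all 24 libraries, 0 genes were called for paclitaxel in cKO, over both genotypes, in males, in females and for males minus females, and 28 between males and females; 0 beta tubulins were called in males and for males minus females. The log2 fold change then became, in WT, 0.34 for Tubb2a, 0.42 for Tubb2b, 0.32 for Tubb4b, 0.43 for Tubb5, 0.093 for Tubb6 and 0.086 for Tubb1. In females it became 0.24 for Tubb2a, 0.33 for Tubb2b, 0.65 for Tubb3, 0.31 for Tubb4b, 0.36 for Tubb5 and 0.090 for Tubb6. The response of cKO minus that of WT became -0.14 for Tubb2a, -0.29 for Tubb2b, -0.53 for Tubb3, -0.11 for Tubb4b, -0.28 for Tubb5 and -0.11 for Tubb6. The response of males minus that of females became -0.11 for Tubb2b, -0.38 for Tubb3, -0.098 for Tubb4b, -0.14 for Tubb5 and -0.10 for Tubb6.

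The DESeq2 Wald test called 137 genes and 2 beta tubulins in cKO, 4 genes in WT, 167 over both genotypes, 5 between cKO and WT, 583 between males and females, 2376 for males minus females, 2592 in males and 55 in females. Without the filter on low counts, 470 genes and 5 beta tubulins were called in cKO, 254 genes in WT, 338 over both genotypes, 366 genes and 2 beta tubulins for cKO minus WT responses, 99 between cKO and WT, 749 between males and females, 2181 for males minus females, and 371 genes and 2 beta tubulins in females. Library totals alone gave 3 genes over both genotypes and 0 in females, and limma voom 0 in females. The cKO libraries fitted alone gave 3 genes.

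In WT, values near 0 changed sign: Tubb3 was -0.0036 with DESeq2 size factors, -0.0035 with the DESeq2 Wald test, -0.00021 with voom, -0.0056 with the replicate block and -0.0047 with WT libraries alone. Library totals gave 0.0028 for Tubb2a and 0.0075 for Tubb4b, and 0.00082 for Tubb4b in females. Voom gave 0.27 for Tubb1.

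Within a genotype and sex, deviations of same-numbered paclitaxel and vehicle cords correlated at -0.302 to 0.557, with 2 of 11 pairs over 0.1. For differently numbered cords the range was -0.477 to 0.364, with 7 of 22 pairs over 0.1. Deviations from means of so few cords depend on each other, and same-numbered cords of other groups were not compared. The check therefore cannot show whether replicate numbers pair the cords. With the replicate block, 9 genes were called over both genotypes, 1891 for males minus females and 63 in females, and 6 beta tubulins in males and 6 for males minus females.

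In cKO alone, 199 genes and 1 beta tubulin were called in males, 0 genes in females, and 0 genes and 0 beta tubulins for males minus females. In WT alone, each of these counts was 0. In cKO females the log2 fold change was 0.075 for Tubb2a, 0.14 for Tubb3, 0.041 for Tubb4a, 0.16 for Tubb4b and 0.046 for Tubb5; Tubb1 was 0.040 for males minus females in cKO and -0.80 in WT males.

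Leaving out 1 library gave 0 to 332 genes in cKO (0 without cKO male vehicle replicate 2, 332 without replicate 1), 0 to 4 in WT, 2 to 62 over both genotypes, 0 to 1 for cKO minus WT responses, 3 to 5 between cKO and WT, 65 to 324 between males and females, 248 to 2419 for males minus females (248 without WT female paclitaxel replicate 1), 357 to 2841 in males (357 without cKO male vehicle replicate 3) and 0 to 10 in females. Beta tubulin calls ran from 0 to 5 in cKO, 1 to 6 for males minus females and 2 to 6 in males. Signs changed for Tubb6 in cKO (-0.071 to 0.020) and in males (-0.046 to 0.052), for Tubb1 in males (-0.33 to 0.76) and for males minus females (-1.001 to 0.094), for Tubb4b in females (-0.054 to 0.011), and in WT for Tubb2a (-0.045 to 0.022), Tubb3 (-0.032 to 0.026) and Tubb4b (-0.028 to 0.016).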
